A study of Mus musculus with 14 samples.

Results

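An annotated 3' end can go unused in a given cell type. Of 33590 poly(A) sites annotated in mouse, 7743 (23.1%) had at most 2 reads summed over both control libraries of 3T3 cells and are called silent ends here. The controls alone chose them, so their low control counts are a description and carry no test. Per the file headers, the annotation was built from 3P-Seq, which captures RNA 3' ends by ligation, and drew on 2 cell types, 3T3 fibroblasts and mouse embryonic stem cells. The 3P-Seq counts of either cell type were not analysed here.

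3T3 is an established mouse fibroblast line. All libraries used here were made by 2P-Seq, which reverse transcribes poly(A)-selected RNA from the poly(A) tail and counts reads at the mRNA 3' end. Control cells gave 2 libraries. Cells exposed to 10 µg/ml actinomycin D gave 4 libraries, collected at 1, 2, 4 and 8 h, and a sucrose gradient gave 6 libraries, 1 per fraction. Each fraction is named here by the ribosome number in its column name (0, 1, 2.5, 4.5, 7.5 or 12). Library totals ran from 1663346 counts in the 0-ribosome fraction to 11575417 in the 12-ribosome fraction.

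The 3' end of an mRNA is made by cleavage of the transcript at a poly(A) site and addition of a poly(A) tail. Many genes carry several such sites, and the choice between them sets how much 3' untranslated sequence the mRNA holds and differs between cell types. An upstream (proximal) site gives a shorter mRNA and a downstream (distal) site a longer one. Actinomycin D blocks transcription, so the mRNAs already made decay without replacement. In a sucrose gradient, mRNAs carrying more ribosomes sediment further.

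Most silent ends had no control read at all: 5307 (68.5%) had 0 reads, 1388 (17.9%) had 1 and 1048 (13.5%) had 2. The controls held 12276906 counts together. The limit of 2 reads therefore equals 0.163 CPM (counts scaled to a library total of 1e6), and a count of 0 allows a level of up to 0.244 CPM (3 counts over both controls). Another 12429 ends (37%) had 3 to 59 control reads, and 13418 (39.9%) had 60 or more and are called strong ends. The 2 controls contributed unequally to the silent ends. Control 1 gave 2612 reads and control 2 gave 872. Reads came from control 1 alone at 1773 silent ends, from control 2 alone at 449, and from both at 214. Control 1 held 82.7% of the reads at ends with 1 control read (Wilson 95% interval 80.6% to 84.6%), 69.8% at ends with 2, 60% at ends with 3 and 49.3% at ends with 4 to 9. At strong ends its share was 47.6%, which was also its share of all control reads.

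Silent ends lay mostly away from strong ends. Within 2000 nt on the same strand, 6041 of 7743 (78%, Wilson 95% interval 77.1% to 78.9%) had no strong end. A strong end lay only downstream of 990 (12.8%), only upstream of 547 (7.06%) and on both sides of 165 (2.13%). The same classes for ends with 3 to 59 control reads were 47.9%, 26.8%, 17.6% and 7.69%, and 49.5% of strong ends had no other strong end in the window. These shares describe the annotation and the controls and were not tested. Among the 1537 silent ends with a strong end on 1 side only, it was downstream for 64.4% (62% to 66.8%), against 60.3% for ends with 3 to 59 reads. For strong ends that share is 50% by symmetry, so that of the silent ends lay above it, as did that of ends with 3 to 59 reads.

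**Figure D1:**
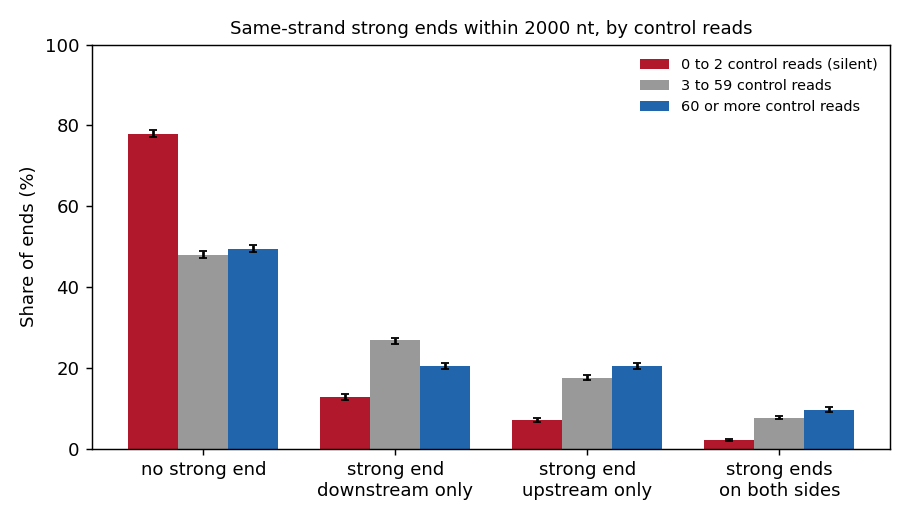
Share of ends (percent, y axis) by the same-strand strong ends within 2000 nt (x axis), for ends with 0 to 2 (red), 3 to 59 (grey) and 60 or more (blue) control reads; error bars are Wilson 95% intervals. Of the silent ends, 78% had no strong end in the window, against 47.9% and 49.5% in the other classes.

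Silent ends spread over the whole window around their strong neighbour. With the strong end downstream, the median distance was 402 nt (quartiles 134 and 1031, range 23 to 1997), and 202 of 990 ends lay under 100 nt away. With the strong end upstream, the median was 479 nt (133 and 1027). The corresponding medians for ends with 3 to 59 reads were 341 and 384 nt. The 1702 silent ends with a strong neighbour shared 1466 distinct nearest ones. Of these neighbours, 192 served 2 or more silent ends, and 1 served 7. Their median was 226 control reads, against 294 for all strong ends.

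Of the 6041 silent ends without a strong neighbour, 3552 (58.8%) had no other annotated end within 2000 nt, 1454 (24.1%) had only other silent ends, and 1035 (17.1%) had an end of 3 to 59 reads. When ends were chained on a strand by gaps of at most 2000 nt, 4149 of 17807 loci (23.3%) held silent ends only, and these took in 4969 (64.2%) of the silent ends. The locus with the most such ends held 9 on the plus strand of chromosome 3, from 63184426 to 63187632 (mm9). Its 9 ends had 0 control reads, 0 reads after actinomycin D and 2 over the gradient. The next held 8 ends, on the minus strand of chromosome 6 from 122403118 to 122405776, and these had 0 reads in all libraries. A run of 7 ends on the plus strand of chromosome 12, from 25644362 to 25646512, also had 0 reads in all libraries. A strong end on the opposite strand lay within the window of 5.98% of silent ends, 8.02% of ends with 3 to 59 reads and 10.7% of strong ends.

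The silent share also varied by chromosome. Among the autosomes it ran from 18.8% (177 of 941 annotated ends on chromosome 18) to 26.9% (597 of 2217 on chromosome 7). On the X chromosome 313 of 1063 annotated ends (29.4%) were silent. Of the 11 ends on the Y chromosome, 10 were silent.

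In the 10 libraries that did not choose them, many of these ends remained without a read. A total of 2937 (37.9%) had 0 reads in all 10 libraries. Over the 4 actinomycin D libraries 4631 (59.8%) had none, and over the 6 fractions 3219 (41.6%) had none. The 4 actinomycin D libraries hold 1.72 times and the 6 fractions 3.56 times the control total, so a read was easier to find there. Control reads and fraction reads went together. The median end with 0 control reads had 0 reads over the 6 fractions, that with 1 had 6, that with 2 had 9, and that with 3, just outside the limit, had 11. The share with no fraction read was 56.8% at 0 control reads, 10.7% at 1, 5.44% at 2 and 4.65% at 3.

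Among silent ends of equal control count, the share without a gradient read was lower near strong ends in these libraries. Of the 4469 ends with 0 control reads and no strong neighbour, 62.3% had no fraction read, with a mean of 1.98 reads per end. The share was 32.1% of 505 with a strong end downstream only, 21.3% of 263 with one upstream only and 17.1% of 70 with strong ends on both sides, with means of 3.87, 4.55 and 9.13 reads. At 1 control read the same shares were 12%, 10.1%, 6.12% and 2.04%. At 2 control reads they were 6.34%, 5.96%, 2.19% and 0. After actinomycin D, 78.6% of ends with 0 control reads and no strong neighbour had no read, against 51.5%, 54.8% and 38.6%. Neighbouring ends may not be independent of each other, and these shares were not tested. Among silent ends without a strong neighbour, 993 of the 1454 with only silent ends around them (68.3%) had no fraction read. The share was 50.2% for those alone in their window and 15.5% for those with an end of 3 to 59 reads.

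**Figure D2:**
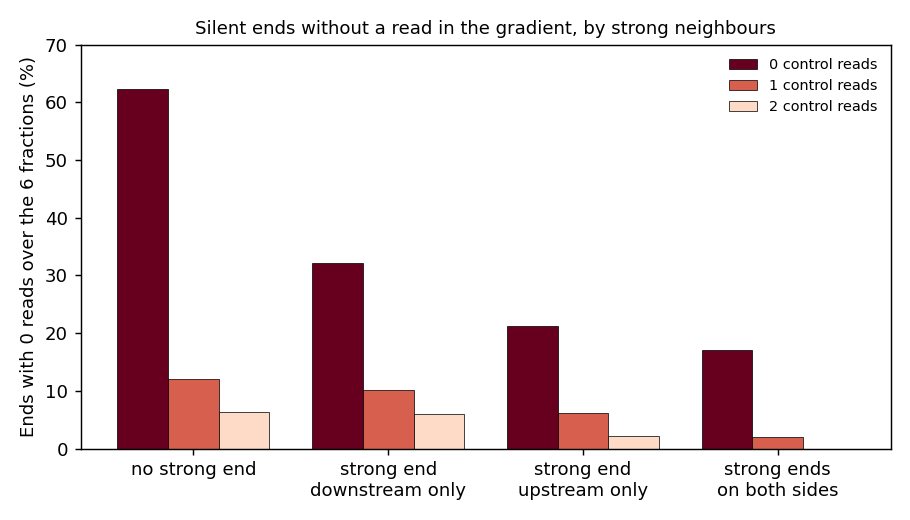
Share of silent ends with 0 reads summed over the 6 gradient fractions (percent, y axis) by same-strand strong ends within 2000 nt (x axis) and by control reads (0 dark red, 1 light red, 2 pale). At 0 control reads it was 62.3% without a strong end and 17.1% with strong ends on both sides.

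Summed over all silent ends, the level was 447 and 136 CPM in the controls that chose them. It was 732, 652, 588 and 569 CPM after 1, 2, 4 and 8 h of actinomycin D. In the fractions, from 0 to 12 ribosomes, it was 1051, 935, 1040.1, 944, 850.3 and 798 CPM. All 10 libraries stood above the controls, which were selected to be low, so a control that did not choose the ends was used as the background. For this, ends with at most 1 read in 1 control were taken and read in the other. The 8534 ends with at most 1 read in control 1 summed to 1287 CPM in control 2. They summed to 1055, 906, 828 and 803 CPM at 1, 2, 4 and 8 h, all lower, and to between 1192 and 1478 CPM in the fractions. The 9034 ends with at most 1 read in control 2 summed to 1645 CPM in control 1. Here the actinomycin D libraries held 1465, 1409, 1237 and 1308 CPM, again lower, and the fractions between 1642 and 1986. With 1 library per time and fraction these differences have no replicate check. Fewer cells carrying an RNA and less of it per cell cannot be told apart in bulk samples.

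Libraries also differed in how their low counts were spread. Over all 33590 ends, there were 1.34 ends with 1 read per end with 2 reads in control 1 and 0.96 in control 2. The ratio was 1.26, 1.34 and 1.32 at 1, 2 and 4 h, 1.07 at 8 h and 1.35 to 1.70 in the fractions. A silent end with any read held 2.24, 2.28, 2.47 and 3.09 reads on average at 1, 2, 4 and 8 h. The silent ends with a read at these times numbered 1993, 1673, 1201 and 746. At 8 h fewer silent ends thus carried more reads each. Control 2 and the 8 h library stood apart in the ratio, and its part in which ends count as silent or as gaining was not tested.

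**Figure D3:**
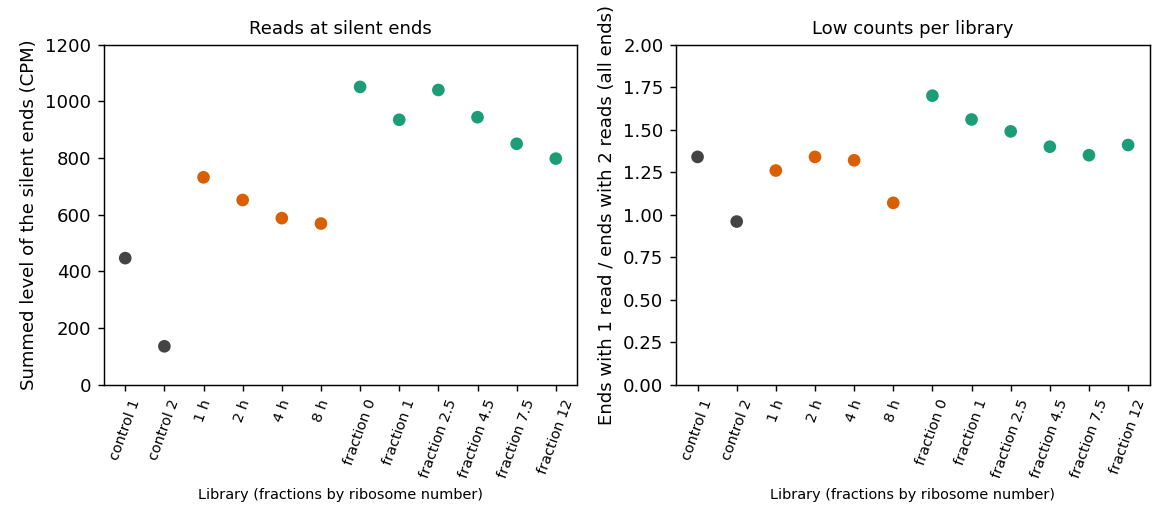
Left, summed level of the 7743 silent ends (CPM, y axis) in each library (x axis; controls grey, actinomycin D orange, gradient fractions green, 1 library per point). Right, the number of all ends with 1 read divided by the number with 2 reads; it is 0.96 in control 2 and 1.07 at 8 h, and 1.26 or more in the other libraries.

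An end was counted as gaining reads in a library where it had at least 10 reads and at least 1 CPM. After actinomycin D 46 silent ends (0.594%) gained reads in at least 1 library, against 55.8% of all annotated ends. In the gradient 324 (4.18%) did so, against 65.5% of all ends. The control counts chose the silent ends, so these low shares are no finding. Both lists shared 22 ends, 47.8% of the actinomycin D gains and 6.79% of the gradient gains, an overlap that was not counted for other ends. Of the 46, 8 gained in 2 or more actinomycin D libraries, and 111 of the 324 in 2 or more fractions. For gaining ends with 3 to 59 control reads these were 3440 of 5402 and 6481 of 8285. The control limit keeps the counts of silent ends low here too. By library the gaining ends numbered 16, 9, 14 and 18 at 1, 2, 4 and 8 h. They numbered 11, 27, 93, 130, 119 and 95 in the fractions from 0 to 12 ribosomes. Libraries differ in depth, and 10 reads are 6.01 CPM in the 0-ribosome fraction and 0.864 CPM in the 12-ribosome fraction. These numbers are therefore not directly comparable between libraries.

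With each library thinned to 4045420 reads, the total at 8 h, and the shallower 0-ribosome fraction left out, the order differed. The silent ends with 10 or more reads then numbered 2, 4, 8 and 18 at 1, 2, 4 and 8 h. They numbered 27, 24, 15, 11 and 8 in the fractions from 1 to 12 ribosomes. The controls give the background for such counts. Of the 8534 ends with at most 1 read in control 1, 34 had 10 or more thinned reads in control 2, against 6, 9, 13 and 32 after actinomycin D and 28 to 55 in the fractions. Of the 9034 ends chosen by control 2, 27 did so in control 1, against 22, 53, 48 and 87 after actinomycin D and 65 to 104 in the fractions. The actinomycin D libraries thus lay below the other control in the first choice, and above it at 2, 4 and 8 h in the second.

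**Figure D4:**
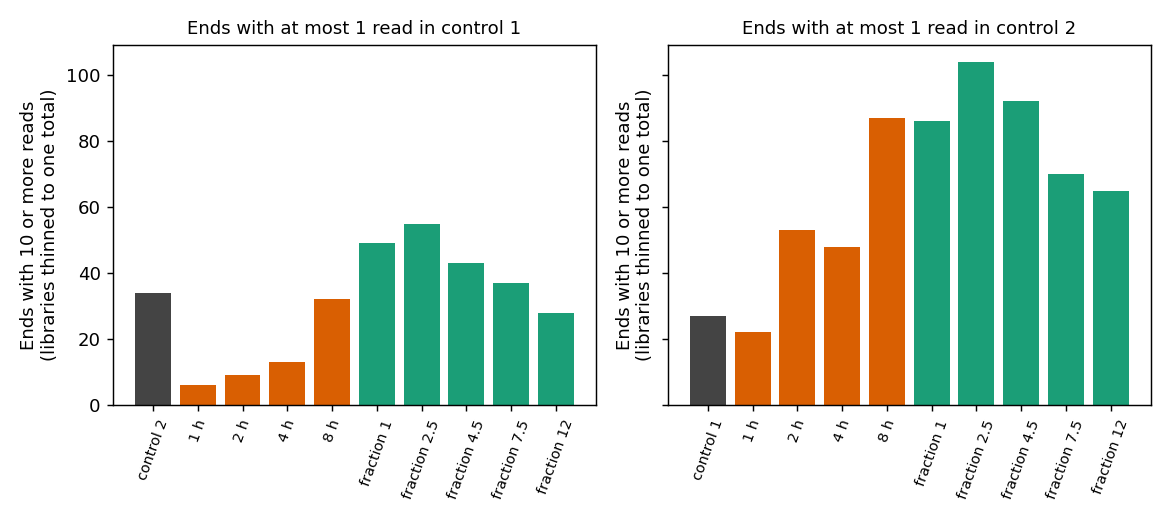
Number of ends with 10 or more reads (y axis) after each library was thinned to one total, for ends with at most 1 read in control 1 (left) or control 2 (right); grey is the control not used to choose the ends, orange actinomycin D, green the fractions. Control 2 shows 34 such ends on the left and control 1 shows 27 on the right.

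Gains went with control reads and with surroundings. The share of ends gaining in the gradient was 1.15% at 0 control reads, 7.56% at 1, 15.1% at 2 and 20.1% at 3. After actinomycin D it was 0.151%, 1.15%, 2.1% and 4.2%. By position, 3.18% of silent ends without a strong neighbour gained in the gradient, 6.46% of those with one downstream only, 8.04% with one upstream only and 14.5% with strong ends on both sides. Control counts differ by position, and at equal control count these shares lay closer together, except for two-sided ends at 0 control reads. At 0 control reads they were 0.962%, 1.19%, 1.52% and 11.4% (8 of 70 ends), at 1 they were 6.49%, 8.24%, 10.2% and 16.3%, and at 2 they were 13.8%, 16.5%, 18.2% and 17.4%. Ends with only silent neighbours gained in 1.44% of cases. Among the 46 actinomycin D gains, the highest level was at 1 h for 14, at 2 h for 5, at 4 h for 9 and at 8 h for 18. For gaining ends with 3 to 59 control reads these numbers were 2291, 1230, 850 and 1031, and the difference was not tested. Gains at 8 h alone numbered 14, and gains at 1 h alone 13. Of the 46, 11 had 5 or fewer reads over the 6 fractions together and 3 had none.

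The rule set silent ends at no more than 2 control reads and their neighbours at 60 or more, so a small share of the reads beside a neighbour is no finding. Summed over the 990 silent ends with a strong end downstream only and their 878 distinct neighbours, the silent ends held 0.275% of the reads at 1 h (Wilson 95% interval 0.257% to 0.294%). They held 0.244% at 8 h and between 0.24% and 0.409% in the fractions. For the 547 with a strong end upstream only, the shares were 0.526% at 1 h, 0.425% at 8 h and 0.616% to 0.711% in the fractions. For the 165 with strong ends on both sides, set against the nearest, they were 0.544% at 1 h, 0.488% at 8 h and 0.571% to 0.956% in the fractions. Intervals here cover counting error only, since amplified reads are not independent molecules.

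The 5 silent ends with the most reads after actinomycin D differed in their time courses. The end at position 108357253 on the minus strand of chromosome 3 had 0 and 0 reads in the controls, then 5, 17, 19 and 42 reads at 1, 2, 4 and 8 h. It had 0 reads in each of the 6 fractions and no strong neighbour. Its level was highest at 8 h, and within the treated libraries it rose with hours by a log2 slope of 0.50 ± 0.10 (SE) per hour relative to the rest of the library (edgeR adjusted p = 0.00162, 4 libraries). Without the 8 h library the edgeR slope was 0.70 with an adjusted p of 0.0855.

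The end at 79756485 on the plus strand of chromosome 10 had 1 and 0 control reads and 0, 4, 7 and 29 reads at 1, 2, 4 and 8 h. It lay 378 nt upstream of a strong end with 2636 control reads, and had 5 reads over the whole gradient. Most of its reads came from the 8 h library, and it rose by 0.77 ± 0.14 log2 units per hour (edgeR adjusted p = 0.00128). A high level in 1 library alone, that at 8 h, also chose this end. Its slope, and its slope against its neighbour given below, restate that choice and are no support. The neighbour itself had 1027, 1538, 2219 and 2449 reads over the same times. Against that neighbour, the silent end rose by 0.48 ± 0.15 per hour (edgeR adjusted p = 0.042), a call lost with DESeq2 (adjusted p = 0.229) and without the 1, 2 or 4 h library (edgeR adjusted p of 0.144, 0.0716 and 0.0641).

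The other 3 showed no called slope after actinomycin D. The end at 123371114 on the plus strand of chromosome 9 had 0 and 0 control reads and 12, 24, 30 and 6 reads at 1, 2, 4 and 8 h (slope 0.02 ± 0.15, edgeR adjusted p = 0.937). It was highest at 4 h and had 10, 5, 0, 0, 0 and 1 reads in the fractions, where its strong neighbour 667 nt downstream had reads in all 6. The end at 124691243 on the minus strand of chromosome 6 had 0 and 2 control reads, 5, 26, 12 and 17 reads at 1, 2, 4 and 8 h, and 0 reads in each fraction (slope 0.23 ± 0.13, edgeR adjusted p = 0.185). A strong end lay 1320 nt upstream of it and had between 55 and 937 reads per fraction.

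The fifth, at 35716884 on the plus strand of chromosome 18, was the end with the steepest gradient slope. It had 2 and 0 control reads and 21, 15, 5 and 1 reads at 1, 2, 4 and 8 h. In the gradient it had 24 reads in the 0-ribosome fraction, 2 in the 1-ribosome fraction and 0 in the 4 heavier ones. Nearly all its gradient reads were thus in the lightest fraction, and its log2 slope per fraction was -3.44 ± 0.38 (edgeR adjusted p = 2.62e-09), towards lighter fractions. The strong end 631 nt downstream had 198, 920, 558, 151, 94 and 108 reads in the same fractions, and the slope of the silent end relative to it was -4.45 ± 0.52 (edgeR adjusted p = 4.30e-14). DESeq2 gave slopes of -2.17 (adjusted p = 0.205) and -0.87 (adjusted p = 1), so both calls rest on the edgeR model.

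**Figure D5:**
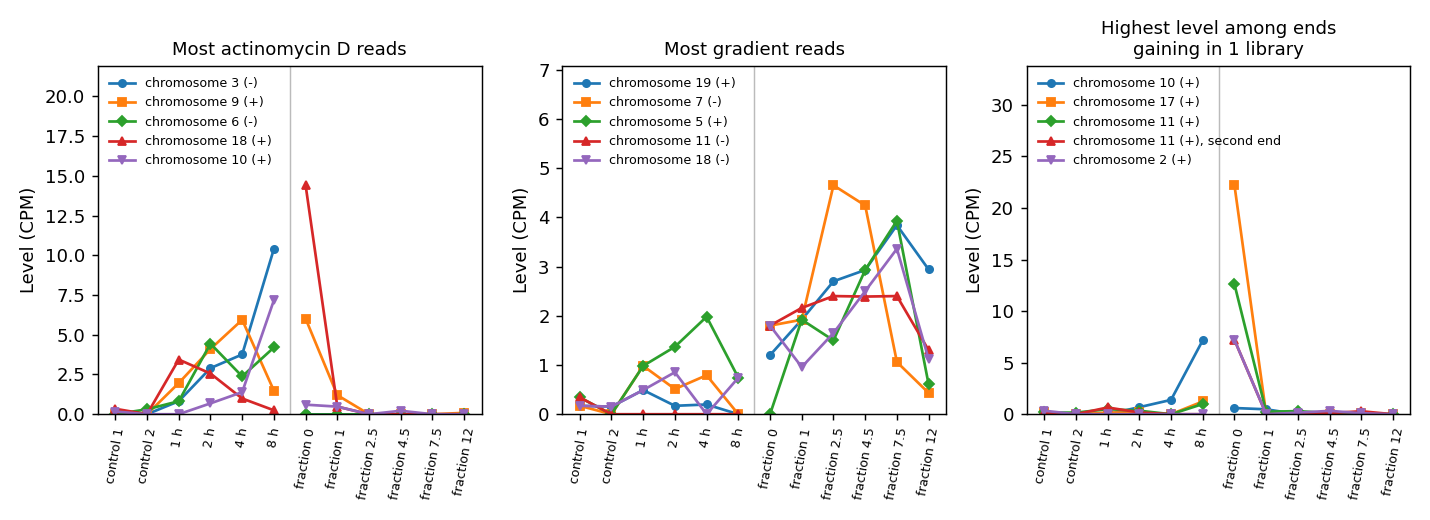
Level (CPM, y axis) in each library (x axis; controls and actinomycin D left of the grey line, gradient fractions right) of the 5 silent ends with the most actinomycin D reads, the 5 with the most gradient reads, and the 5 with the highest level among ends gaining in 1 library. Each line is 1 end; the y axes differ between panels, and 4 of the 5 ends on the right are high in the 0-ribosome fraction only.

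The 5 silent ends with the most gradient reads were spread over several fractions. The end at 34650909 on the plus strand of chromosome 19 had 1 read in each control, 3, 1, 1 and 0 after actinomycin D, and 2, 8, 18, 27, 40 and 34 reads in the fractions from 0 to 12 ribosomes. It was highest in the 7.5-ribosome fraction, had reads in all 6, and lay 103 nt upstream of a strong end. The end at 117957285 on the minus strand of chromosome 7 had 1 and 0 control reads and 3, 8, 31, 39, 11 and 5 fraction reads, most of them in the middle fractions. It had strong ends on both sides.

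The end at 90200298 on the minus strand of chromosome 11 had 2 and 0 control reads, 0 reads in all 4 actinomycin D libraries and 3, 9, 16, 22, 25 and 15 in the fractions. It had no strong neighbour, and reads in all 6 fractions with none after treatment set it apart from the other 4. The end at 129530055 on the plus strand of chromosome 5, also without a strong neighbour, had 6, 8, 10 and 3 reads after actinomycin D and 0, 8, 10, 27, 41 and 7 in the fractions. The end at 31742269 on the minus strand of chromosome 18 had 3, 4, 11, 23, 35 and 13 fraction reads and lay 729 nt upstream of a strong end. For none of these 5 was a gradient slope called, with slopes from -0.47 ± 0.27 to 0.13 ± 0.21 and edgeR adjusted p from 0.345 to 0.977.

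Of the 5 ends with the highest level among those gaining in 1 library only, 4 were in the 0-ribosome fraction. The end at 71077919 on the plus strand of chromosome 17 had 1 and 0 control reads, at most 5 reads in any actinomycin D library, and 37, 0, 0, 0, 1 and 0 in the fractions. All but 1 of its gradient reads were in the 0-ribosome fraction, and its slope was -2.86 ± 0.34 (edgeR adjusted p = 9.48e-09, DESeq2 adjusted p = 0.308). A pair of ends on the plus strand of chromosome 11, at 87236756 and 87236798, showed the same shape. They had 12 and 21 reads in the 0-ribosome fraction and at most 3 and 2 in any other fraction. The second had a slope of -2.38 ± 0.31 (edgeR adjusted p = 1.17e-07), and neither had a strong neighbour. A high level in the 0-ribosome fraction alone chose the ends at 71077919 and 87236798, so their slopes restate that choice and are no support. The end at 80480024 on the plus strand of chromosome 2 had 12, 0, 1, 3, 1 and 0 reads in the fractions, too few for the slope fit. The remaining end of the 5 is that on chromosome 10 described above, whose slopes restate its choice in the same way.

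Over the gradient, a slope could be fitted for 520 silent ends with at least 20 reads over the 6 fractions. To pass this filter with at most 2 control reads, an end had to stand higher over the summed fractions than in the controls. The slopes therefore describe these 520 ends and not silent ends in general. None was called as moving towards heavier fractions with edgeR (10 at an unadjusted p under 0.05, and 0 with DESeq2), against a background of 0.597% of all 23107 ends tested. Towards lighter fractions 20 silent ends (3.85%) were called, against a background of 4.15%, so the silent share was near that of all ends. DESeq2 called 23. Among other ends with 20 to 129 fraction reads, the range of these silent ends, 4.72% were called lighter and 0.441% heavier. The number of lighter calls depended on single libraries. It was 26, 5, 9, 15, 7 and 8 with the 0-, 1-, 2.5-, 4.5-, 7.5- and 12-ribosome fraction left out in turn. Ends then left with fewer than 20 reads were not fitted.

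The median slope of the 520 was -0.081 log2 units per fraction, against 0.055 for all ends tested, and 294 of the 520 were negative. Their median SE was 0.30. The median slope was 0.006 for ends with 3 to 59 control reads and 0.000 for other ends with 20 to 129 fraction reads. Under the authors' header factors in place of TMM scaling, the median of all ends moved to 0.482 and that of the silent ends to 0.314, and 41 silent ends were called heavier and 6 lighter. Of all 23107 ends tested, 7498 were called heavier and 232 lighter under these factors. Which ends were called in either direction thus depends on the scaling, while the silent median lay below the overall median under both. In the authors' deposited table, the median ribosomes per mRNA of silent ends with at least 20 fraction reads was 5.59 (quartiles 4.39 and 6.76), against 5.99 for ends with 3 to 59 control reads and 6.47 for strong ends. For all 30164 ends carrying it, that value was a weighted mean of the fractions' ribosome numbers. It thus restates the same fraction reads and gives no independent check.

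The 20 ends called lighter had slopes from -3.44 to -0.81, and 14 of them had no strong neighbour, as did 314 of the 520 tested. Besides those above, the end at 36961654 on the plus strand of chromosome 18 had 0 and 0 control reads, 31 reads in the 0-ribosome and 17 in the 1-ribosome fraction, and 1 in the heavier 4 together. Its reads were confined to the 2 lightest fractions apart from that 1, and its slope was -2.72 ± 0.31 (edgeR adjusted p = 2.62e-09). Only 5 of the 20 had at most 5 reads in the 4 heavier fractions.

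After actinomycin D, a slope on hours could be fitted for 42 silent ends, and edgeR called 12 (28.6%) as rising relative to the rest of the library, against a background of 11.5% of 18793 ends. To pass the filter of 20 reads with at most 2 control reads, an end had to stand higher after treatment than in the controls, so this count supports nothing about silent ends in general. None fell with edgeR (1 at an unadjusted p under 0.05, against a background of 15.8% called). DESeq2 called 8 as rising and 0 as falling. Without the 8 h library 2 rises were called, and without the 1, 2 or 4 h library 5 each time. Ends then left with fewer than 20 reads were not fitted, so these counts do not retest all 12. Without the 8 h library, of the 12 only the end at 108357253 on chromosome 3 still had 20 reads. It lost its call, so the 2 rises were at other ends. Among other ends with 20 to 83 reads over these libraries, 2.57% were called as rising and 8.43% as falling.

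The 12 rises had slopes from 0.46 to 0.77, and 7 of the ends had at most 5 fraction reads. The end at 5716594 on the minus strand of chromosome 2 had 1 and 0 control reads, 0, 7, 2 and 27 reads at 1, 2, 4 and 8 h, and 5 over the gradient. It was uneven over time, with a slope of 0.70 ± 0.16 (edgeR adjusted p = 0.00466). The end at 62219990 on the plus strand of chromosome 9 had 0, 2, 6 and 12 reads over the 4 times and 1 gradient read, with no strong neighbour (slope 0.67 ± 0.19, edgeR adjusted p = 0.0177). Without the 1 h library its edgeR adjusted p was 0.0575.

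Paired with the nearest strong end, 206 silent ends could be compared over the gradient. They passed the filter only by standing higher over the summed fractions than in the controls, so their counts do not describe silent ends in general. With edgeR, 2 were called lighter than their neighbour, against a background of 0.363% of 5232 pairs. None was called heavier (4 at an unadjusted p under 0.05, background 0.115%), and DESeq2 called none either way. Besides the end at 35716884, the other was at 51753084 on the minus strand of chromosome 9, with 2, 1, 7, 6, 2 and 2 fraction reads (slope -1.01 ± 0.27 relative to a strong end 1673 nt downstream, edgeR adjusted p = 0.0428, DESeq2 adjusted p = 0.832). That neighbour had 47, 106, 255, 1094, 1600 and 698 reads. After actinomycin D 24 silent ends could be compared, and 4 were called as rising against their neighbour with edgeR, against a background of 2.96% of 3138 pairs. These 24 also passed the filter only by standing higher after treatment than in the controls, so nothing is read from that count. None was called as falling (1 at an unadjusted p under 0.05, background 0.574%), and DESeq2 called none either way. All 4 had the strong end downstream only, as did 14 of the 24 compared. The end at 5716594 on chromosome 2 had the smallest p among them (slope 0.62 ± 0.14, edgeR adjusted p = 0.00195, 0.0512 with DESeq2). The end at 26812479 on the minus strand of chromosome 9 had 1, 3, 2 and 14 reads at 1, 2, 4 and 8 h while its neighbour had 42, 27, 15 and 12 (slope 0.67 ± 0.21, edgeR adjusted p = 0.0451). Without the 1 h library edgeR called no such rise, though the end at 26812479 then had fewer than 20 reads and was not fitted. Without the 8 h library all 4 had fewer than 20 reads, so none was retested, and edgeR called no other silent end as rising.

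The authors' deposited table carries derived values for many silent ends. None of the 7743 passes the authors' filter, but 3443 (44.5%) have a half-life there, with a median of 2.72 (its unit is not stated in the file headers), and 1232 of these had 0 control reads. Ends with 3 to 59 control reads had a median of 2.28 and strong ends 2.94 in that table. At the silent ends with 0 control reads no read lies behind the level before treatment.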

How the data were processed

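The authors' deposited table gives raw read counts at 33590 sites in 12 libraries of 3T3 cells, with positions in mm9, per the file headers. The submitters' processing notes name Bowtie (version not given in the sources here). The authors' own half-life and ribosomes per mRNA scores stand in the same deposited table, and the file headers give a factor per library. Sites are named by position, since no genome or gene annotation of mm9 was used here. The 2 3P-Seq libraries were not analysed here. Which fraction number of the sample titles each fraction column holds is not stated, so fractions were ordered by the number in the column name. Per-sample columns left unused numbered 0.

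The silent ends, limits and alternatives were chosen with earlier results of these data known. Named are the 5 silent ends with the most reads after actinomycin D, the 5 with the most in the gradient, the 5 with the highest level among those gaining in 1 library, and in each test the 3 called ends with the largest slope in each direction. CPM is counts scaled to a library total of 1e6. Slopes were fitted with edgeR 4.0.16 in R 4.3.3 (quasi-likelihood F test, robust, TMM scaling, Benjamini-Hochberg over all ends or pairs tested, called under 0.05), with DESeq2 1.42.0 as an alternative. Ends needed 20 reads over the libraries fitted. The controls were left out, leaving 4 residual degrees of freedom in the gradient and 2 after actinomycin D. Each time and fraction is 1 library, and no label states separate cultures for the 2 controls. A p-value therefore reflects how single libraries scatter around a fitted line, and that scatter may be technical. The fits were tested on simulated data first. In the gradient, slopes of 0.3, 0.6 and 1.2 log2 units per fraction were recovered in 0%, 17.9% and 90.9% of cases. After actinomycin D, the same slopes per hour were recovered in 59.1%, 94% and 100%. For pairs, slopes of 0.6 and 1.2 were recovered in 32% and 94% over the gradient and in 81% and 100% after actinomycin D. A lack of calls in the gradient thus does not exclude slopes of 0.6 or less. Other limits, scalings, filters and left-out libraries were tried.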

Additional observations from a re-analysis of the deposited data

Results flagged for a closer look

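For 20 values (17 named ends and 3 totals over silent ends), the level over the 6 fractions was examined for a fraction far from the rest, and 8 stood out. Chance alone gives about 1 in 20, but the choice of ends fixed much of this count, so it is no excess over chance. The fractions are different parts of a gradient and not replicates. In all 8 the 0-ribosome fraction was the high one, and it is also the shallowest library, where 10 reads are 6.01 CPM. The ends were at 123371114 on chromosome 9 (6.01 CPM, next highest fraction 1.2), 35716884 on chromosome 18 (14.4, next 0.479), 71077919 on chromosome 17 (22.2, next 0.096) and 87236798 on chromosome 11 (12.6, next 0.3). The others were at 87236756 on chromosome 11 (7.21, next 0.288), 80480024 on chromosome 2 (7.21, next 0.326), 36961654 on chromosome 18 (18.6, next 4.07) and 62219990 on chromosome 9 (0.601 CPM, which is 1 read, next 0). Of these 8 ends, 4 were named because they gained reads in that fraction alone, and those at 35716884 and 36961654 for the steepness of their slope towards lighter fractions.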

How the results depend on the processing

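No paired analysis was possible because the numbers of the controls and of the fractions do not pair libraries, and the fraction columns carry no replicate number. The planned search for poly(A) signals at the sites was not run. No called slope of a named end changed sign under the alternatives run. Slopes of named ends that were not called were not recomputed.

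The share of silent ends without a strong neighbour was 84.2% at 0 control reads, 73% at up to 5, 74.2% with neighbours of 30 or more control reads, 86.5% with 200 or more, 83.3% in 1000 nt and 71.8% in 5000 nt, and 73% to 77.4% with either control left out. The downstream share of one-sided ends stayed between 63.2% and 66.4%. Gains after actinomycin D numbered 493 at 5 reads and 0.5 CPM, 7 at 20 reads and 2 CPM, 8 in at least 2 libraries, 8 at 0 and 199 at up to 5 control reads, and 25 with thinned libraries. Gains in the gradient under the same settings numbered 1107, 44, 111, 61, 946 and 67. Thinning was chosen after seeing the data.

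Gradient calls towards lighter fractions numbered 6 with header factors, 110 with no filter beyond 1 read, 1 at 60 or more reads, 6 at 0 and 49 at up to 5 control reads, and 5 to 26 with a fraction left out. Calls towards heavier ones numbered 1 with RLE scaling, 41 with header factors, 2 with no filter, 1 with the ribosome number as covariate and 0 to 1 with a fraction left out. With header factors, 7498 of all ends tested were called heavier and 232 lighter. Rises after actinomycin D numbered 7 with header factors, 43 with no filter, 1 at 60 or more reads, 4 at 0 and 30 at up to 5 control reads, and 2 to 5 with a library left out. Falls numbered 1 with header factors and 2 with no filter. Of all ends tested after actinomycin D, 312 were called as rising and 7960 as falling with header factors, against 2168 and 2964 with TMM scaling. The background shares of rises and falls thus also depend on the scaling.

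Against the neighbour over the gradient, lighter calls numbered 0 with DESeq2, 0 at 60 and 5 at 10 or more reads per end, and 0 to 2 with a fraction left out; heavier calls numbered 0 to 1. After actinomycin D, rising calls numbered 0 with DESeq2, 0 at 60 and 1 at 10 or more reads per end, 1 with the fullest neighbour and 0 to 2 with a library left out. Falling calls numbered 1 at 10 or more reads per end and 1 with the fullest neighbour. Higher read limits or a left-out library leave fewer ends to test. Causes of these differences were not tested. The fullest silent end had 129 gradient reads, and the effect of depth on the calls was not tested.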
